A study of Bos grunniens with 6 samples.

Results

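*SOX5*, *FOXJ2* and *KLF6* encode transcription factors of the SOX, forkhead and Krüppel-like families, and their transcripts and m6A peaks were followed in the testis of yaks (*Bos grunniens*) before and after sexual maturity. *SOX5* (ENSBGRG00000000530) and *KLF6* (ENSBGRG00000012023) were taken by their gene IDs, and *FOXJ2* (ENSBGRG00000009305) by the ID of the peak that starts at 370772 on chromosome 5, so that 3 of the 20953 genes in the expression table and 7 of the 16318 compared peaks are described. The groups were 3 juvenile males of 6 months (Y6M) and 3 sexually mature males of 30 months (Y30M). The paper describes the yaks as healthy, and the labels name no treatment. Each yak gave testicular parenchyma, and its fragmented polyadenylated RNA was sequenced as an input library and, after pull-down with an m6A antibody, as an immunoprecipitated (IP) library. A library is therefore the RNA of all cell types in a block of tissue, in which fewer cells of a type and less RNA per cell cannot be told apart.

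SOX factors bind DNA through a high mobility group box. SOX5 belongs to the SoxD group, whose long form acts with SOX6 and SOX9 in cartilage, whereas a short form is known from the testis, where it has been described in spermatids and linked to genes of cilia and flagella. FOXJ2 is a forkhead activator described in male germ cells in meiosis. KLF6 is a zinc finger factor that binds GC-rich promoters, is found in many tissues and is induced quickly by growth signals and injury. N6-methyladenosine (m6A) is a mark on mRNA that reader proteins recognise and that can alter the stability and translation of a transcript.

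*SOX5* rose between the ages, while *FOXJ2* and *KLF6* fell. On average *SOX5* went from 0.811 to 50.1 FPKM, where FPKM are fragment numbers scaled to transcript length and to library size, a ratio of 61.8, *FOXJ2* from 18.2 to 8.02 FPKM, and *KLF6* from 26.6 to 5.93 FPKM. For each of the 3 genes the Y6M and Y30M libraries did not overlap, which was also true of 54.1% of the 19477 genes above 0 in at least 1 library. All 3 passed the thresholds for a differentially expressed gene (a fold change of 1.5 or more with an unadjusted p-value up to 0.05), as did 46.3% of all genes tested. Among all genes tested, 27.3% were called higher and 19.0% lower in Y30M, so a call by itself does not set these genes apart.

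In Y6M replicates 1, 2 and 3, *SOX5* was at 0.889, 0.803 and 0.741 FPKM. In Y30M it was at 37.2, 61.0 and 52.2 FPKM. The lowest mature library was thus far above the highest juvenile library, and the juvenile libraries lay close together. *SOX5* stood at the 24.0th to 27.7th percentile of the detected genes in the Y6M libraries and at the 81.7th to 88.7th percentile in the Y30M libraries. The Y6M mean was 0.811 ± 0.0746 FPKM and the Y30M mean was 50.1 ± 12.0 FPKM (SD, 3 yaks each). On log2(FPKM + 1) the difference was 4.79 (standard error 0.20, 95% interval 4.30 to 5.28, limma, Benjamini-Hochberg adjusted p = 8.13e-05), a scale that understates the change of a gene under 1 FPKM in juveniles, where the log2 ratio of the means was 5.95. Of the 19477 genes tested, 515 rose more on this scale. The values are given per gene and not per transcript, so the long and short forms of *SOX5* were not told apart. The RefSeq annotation of another assembly, Bosgru_T2T1.0, holds 50 transcript models of *SOX5* against 2 each of *FOXJ2* and *KLF6*. The FPKM were not made on that assembly.

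The oligonucleotides that the study designed to amplify *SOX5* by qRT-PCR are the sequences by which its transcript can be measured again, and they are shown 5′ to 3′ for that reason. Their lengths were 21 and 20 bases with 52.4% and 55.0% G or C.
SOX5-F: accttggtgctgctgtatctc
SOX5-R: ggcctgccccactgtttatt

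*FOXJ2* was at 16.9, 18.5 and 19.1 FPKM in Y6M replicates 1, 2 and 3. It was at 12.4, 5.17 and 6.47 FPKM in Y30M. Every mature library was below every juvenile library, but Y30M replicate 1 lay nearer to the juvenile values than to the other mature libraries. The coefficient of variation was 6.25% within Y6M and 48.2% within Y30M. The means were 18.2 ± 1.14 and 8.02 ± 3.87 FPKM (SD, n = 3 each), a difference of -1.17 on log2(FPKM + 1) (standard error 0.30, 95% interval -1.93 to -0.41, limma, Benjamini-Hochberg adjusted p = 0.0275). Without Y30M replicate 1 the difference was -1.50. With both libraries of replicate number 3 left out it was -1.04 and no longer passed the threshold (limma, unadjusted p = 0.0813).

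*KLF6* was at 25.2, 23.8 and 30.9 FPKM in Y6M replicates 1, 2 and 3 and at 6.99, 4.14 and 6.67 FPKM in Y30M. The mature libraries all lay well under the juvenile ones, with the lowest value in Y30M replicate 2. The means were 26.6 ± 3.72 and 5.93 ± 1.56 FPKM (SD, n = 3 each), which is 4.49 times more in Y6M. The difference on log2(FPKM + 1) was -2.01 (standard error 0.21, 95% interval -2.55 to -1.48, limma, Benjamini-Hochberg adjusted p = 0.00117). Of all genes tested, 901 fell more than *KLF6* and 2407 fell more than *FOXJ2* on this scale.

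**Figure D1:**
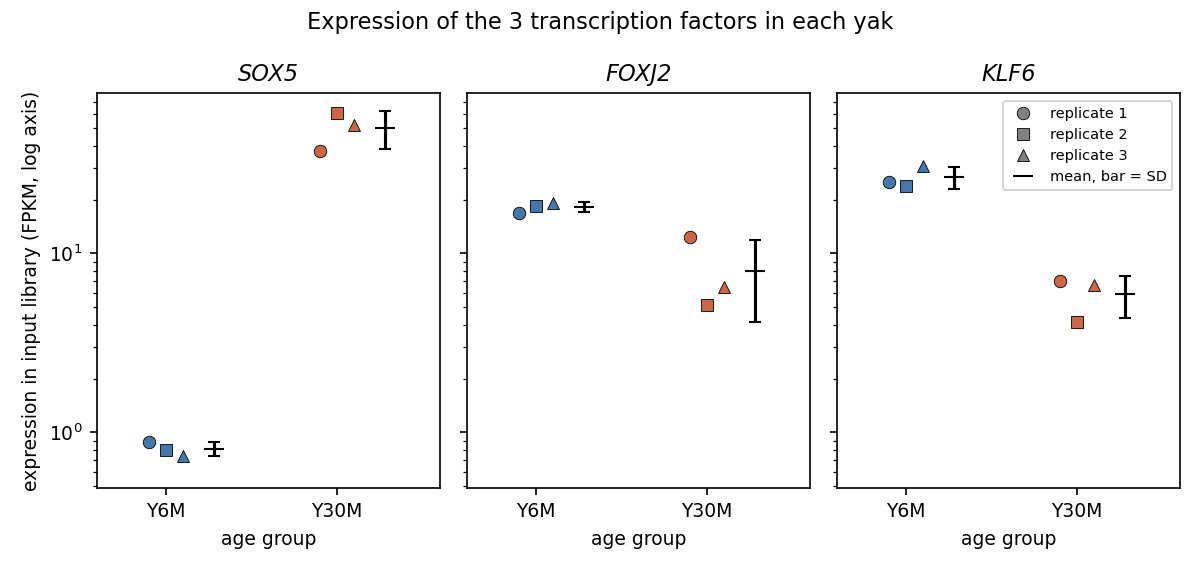
Expression of *SOX5*, *FOXJ2* and *KLF6* in FPKM on a log axis, for the Y6M and Y30M input libraries. Symbols are the 3 yaks of a group, and the horizontal marks with bars are the mean ± SD. *SOX5* lies between 0.741 and 0.889 FPKM in Y6M and between 37.2 and 61.0 FPKM in Y30M, whereas the other genes are lower in Y30M, with Y30M replicate 1 of *FOXJ2* at 12.4 FPKM.

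For a single value, 3 yaks against 3 allow no exact two-sided permutation p-value under 0.1, and all 3 genes reached 0.1. When libraries with the same replicate number were set against each other on log2(FPKM + 1), *SOX5* differed by 4.34, 5.10 and 4.93 for numbers 1, 2 and 3. The differences were -0.42, -1.66 and -1.43 for *FOXJ2* and -1.71, -2.27 and -2.05 for *KLF6*. Because the groups did not overlap, the direction was bound to be the same for each number. The numbers belong to different yaks with no stated pairing, so these differences are not independent repeats. Number 1 gave the smallest difference in all 3 genes.

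The order of the genes by FPKM, which is scaled per length, turned over between the ages. In Y6M, *KLF6* was highest, *FOXJ2* followed and *SOX5* was lowest in 3 of 3 libraries. *KLF6* was 1.29 to 1.61 times as high as *FOXJ2* there, and *FOXJ2* was 19.0 to 25.8 times as high as *SOX5*, so no neighbours in this order overlapped. In Y30M, *SOX5* was highest in 3 of 3 libraries, at 3.0 to 11.8 times *FOXJ2* and 5.32 to 14.7 times *KLF6*. *FOXJ2* and *KLF6* could not be ordered in Y30M, since their ratio ran from 0.970 to 1.78 and their ranges overlapped. *KLF6* fell by 0.84 more than *FOXJ2* on log2(FPKM + 1). The difference between these genes within a library did not overlap between the ages (two-sided p = 0.1 by exact permutation, which is the lower limit of the design, and 0.1 after Benjamini-Hochberg adjustment over the 3 pairs of genes).

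The table of compared peaks holds peaks that MeTDiff called from IP against input over all libraries together. It lists 3 peaks in *SOX5*, 2 in *FOXJ2* and 2 in *KLF6*. Of the 8809 genes with a peak, 19.6% had at least 3 and 47.4% at least 2. Coordinates refer to LU_Bosgru_v3.0, fold enrichment is that of IP over input as the authors' peak caller gave it, and the values carry no replicate error because peaks were called over replicates.

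*SOX5* lies on the minus strand, so that the lowest coordinates are nearest to the 3′ end of its transcript. Its first peak (chr5:16470677-16470826) is a single exon block of 150 bp with a fold enrichment of 2.82. The second (chr5:16473082-16525872) follows after a gap of 2255 bp towards the 5′ end and consists of 5 exon blocks of 73 to 174 bp, together 599 bp, with a fold enrichment of 1.99. A gap of 217224 bp separates it from the third peak (chr5:16743097-16854436), which has 3 blocks of 136, 87 and 77 bp and a fold enrichment of 2.62. The 9 blocks of *SOX5* thus hold 1049 bp of exon spread over 383760 bp of the genome. Peaks with 5 or more exon blocks made up 6.80% of the table. Of the 3 genes, only *SOX5* had peaks of more than 2 blocks.

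The *SOX5* peaks were listed by the caller, but each was given an FDR of 1.00 for its enrichment over input. That FDR was given to 27.8% of all peaks and to 52.1% of the 1320 peaks on genes under 1 FPKM on average in Y6M, where *SOX5* belongs. In fold enrichment the *SOX5* peaks lay in the middle of the table, with 68.9%, 35.4% and 62.2% of all peaks lower. The fold enrichment is taken over both ages, and the RNA of *SOX5* in the input came almost wholly from the mature libraries.

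*FOXJ2* is also on the minus strand. Its first peak (chr5:370772-371756) joins blocks of 83 and 67 bp, which lie at 370772 to 370854 and 371690 to 371756, and had a fold enrichment of 2.57 with an FDR of 0.00513. The second (chr5:380853-381002) is a single block of 150 bp, 9096 bp away towards the 5′ end, with a fold enrichment of 1.35 and an FDR of 4.37e-06. The peak with the lower FDR was thus the one with the lower enrichment, under which only 4.36% of all peaks lay. The *FOXJ2* peaks were the only 2 of the 7 with an FDR of at most 0.05, against 69.0% of all peaks in the table.

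*KLF6* is on the plus strand, and its peaks were single blocks. The first (chr12:36412356-36412651) is 296 bp long with a fold enrichment of 2.39 and an FDR of 1.00. The second (chr12:36414828-36415221), 2176 bp further downstream, is 394 bp long with a fold enrichment of 2.10 and an FDR of 0.312. The *KLF6* peaks were the longest exon blocks among the 3 genes, and they lie within 2866 bp.

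**Figure D2:**
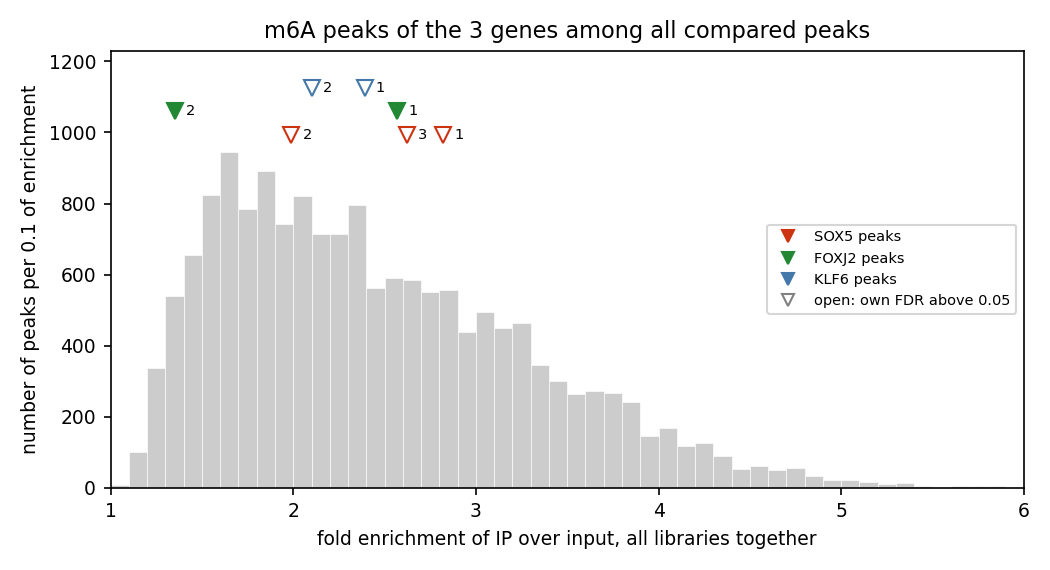
Fold enrichment of IP over input for the 7 peaks of *SOX5*, *FOXJ2* and *KLF6* (triangles, numbered by position on the chromosome) above a histogram of all 16318 compared peaks in steps of 0.1, with 43 peaks beyond an enrichment of 6 not drawn. The median of all peaks was 2.31, the triangles lie between 1.35 and 2.82, and filled triangles, both of *FOXJ2*, have an FDR of at most 0.05 for their own enrichment.

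The compared peaks were then set against the peaks called in Y6M alone, with an overlap of at least 1 bp. Overlap was taken between whole genomic spans, introns included, without regard to strand. Peaks of several exon blocks can therefore overlap through introns alone, which can raise the shares given below for all peaks. These Y6M peaks, 15116 in number, were read from the deposited list of scored adenosines. A Y6M peak without a scored adenosine would therefore be missing, so absence here does not show that no peak was called in Y6M. The paper counts more peaks in juvenile testis than were read here, and the positions in its own peak list were not used. Only 1 of the 7 peaks, the first of *KLF6*, overlapped a Y6M peak, whereas 75.4% of all compared peaks did. *SOX5*, with 0 of 3 peaks in the Y6M list, was a weakly expressed gene in juveniles, and of the peaks on genes under 1 FPKM in Y6M 27.9% were found there. *FOXJ2*, with 0 of 2, was at 18.2 FPKM in Y6M. Of the 3729 peaks that had an FDR of at most 0.05 and lay on genes of 10 to 30 FPKM in Y6M, 88.2% overlapped a Y6M peak, and the *FOXJ2* peaks were among those that did not. The peaks were not set against a list called in Y30M, so they were not placed in Y30M here.

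The Y6M peak of *KLF6* (chr12:36412110-36412651) spans 542 bp and shares its end with the first compared peak, which covers its last 296 bp. The list gives each scored adenosine in a peak a prediction score from 0 to 1, which is not a measured methylation level. In this peak 7 were scored. All 7 were classed as m6A sites, at scores of 0.534 to 0.672 with a median of 0.610. Over all Y6M peaks 21.5% of the scored adenosines were classed as sites, a share in which peaks with many scored adenosines weigh most. Among the 11947 Y6M peaks with at least 5 scored adenosines, 68 (0.569%) had every one classed as a site. A peak with many more scored adenosines than 7 meets this less easily. The 1813 Y6M peaks spanning 400 to 700 bp are nearer in size to the *KLF6* peak. Among them the share with every adenosine classed as a site was 1.77%. Their medians were 9 adenosines scored and 40.0% classed as sites. By the authors' classes, 4 of the *KLF6* sites were of high confidence, 1 of very high, 1 of moderate and 1 of low confidence. The site of very high confidence is listed at position 36412300, outside the compared peak. Of the 7 sites, 2 (at 36412445 and 36412521) lie inside the compared peak and 5 in the part of the Y6M peak outside it.

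**Figure D3:**
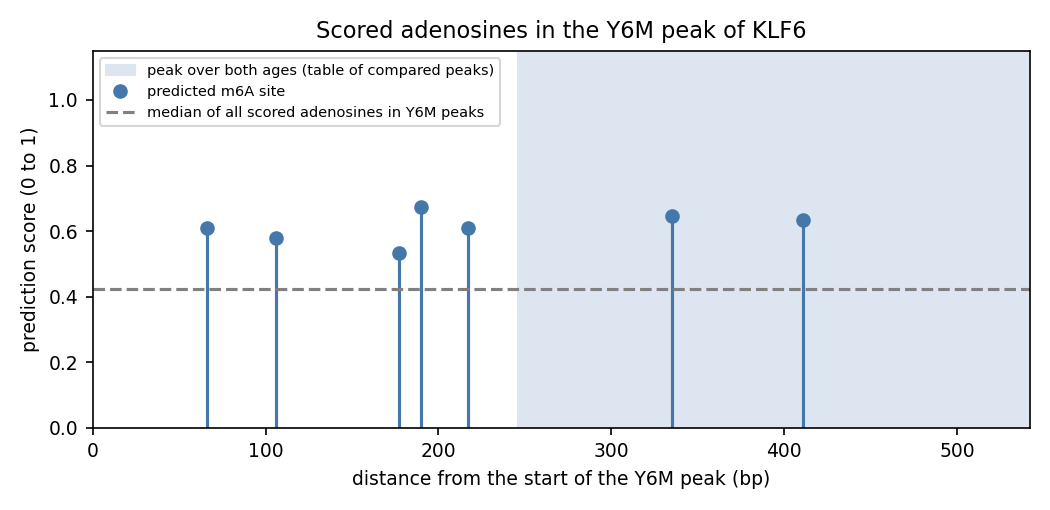
Prediction scores (0 to 1) of the 7 scored adenosines in the Y6M peak of *KLF6* against their distance in bp from the start of that peak. The shaded part is the peak called over both ages. The dashed line is the median score of all scored adenosines in Y6M peaks of any length (0.424). All 7 scores lie above that line, from 0.534 to 0.672, and 2 of them fall in the shaded part.

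Related genes were described by lists of the SOX, FOX and KLF/SP families, of immediate early genes, of transcription regulators of male germ cells and of sperm flagellum genes. Names were paired with 1874 of the gene IDs only, mostly through the study's annotation of genes with differential m6A peaks. These named genes are therefore a selected set, of which 55.9% were called against 46.3% of all genes tested. The median difference over all genes tested was 0.035 on log2(FPKM + 1), and 0.046 over the 1871 named ones.

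Of the 19 other genes in the SOX list, 2 had a paired ID and both fell, with a median difference of -0.91. *SOX9*, which directs Sertoli cell fate and acts with SOX5 in cartilage, went from 38.1 ± 3.79 to 20.1 ± 7.27 FPKM (log2 difference -0.94, standard error 0.26). *SOX11*, a SoxC factor, went from 6.78 ± 1.82 to 3.36 ± 1.58 FPKM (log2 difference -0.87, standard error 0.33), with overlapping groups and an adjusted p of 0.0885 (limma). The rise of *SOX5* was thus not shared by these 2 genes. *SOX6*, *SOX13* and *SOX30*, also in the list, had no paired ID and were not assessed.

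In the FOX list 4 of 42 genes had a paired ID, of which 2 rose, 1 fell and 1 was not called. *FOXJ1*, the master regulator of motile cilia, rose from 0.0940 ± 0.0730 to 11.3 ± 4.22 FPKM (log2 difference 3.45, standard error 0.25, limma, adjusted p = 3.40e-04). *FOXE1*, known from thyroid development, rose from 0.0575 ± 0.0421 to 12.0 ± 5.15 FPKM (log2 difference 3.55). *FOXO3*, which responds to insulin signalling, fell from 38.4 ± 1.31 to 14.7 ± 6.01 FPKM (log2 difference -1.39, standard error 0.27). *FOXO1* was at 17.1 ± 2.97 and 14.5 ± 5.23 FPKM (log2 difference -0.27, unadjusted p = 0.396 by limma). *FOXJ2* therefore moved in the direction of *FOXO3* and opposite to *FOXJ1*.

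In the KLF/SP list 4 of 26 genes had a paired ID, 2 of which fell and none rose, with a median difference of -0.77. *KLF3*, mainly a repressor, fell from 24.9 ± 6.06 to 5.03 ± 1.11 FPKM (log2 difference -2.09, standard error 0.23), which is close in level and in size to *KLF6*. *SP3*, a GC-box factor of most cells, fell from 26.9 ± 5.58 to 12.5 ± 3.83 FPKM (log2 difference -1.07). *KLF9* (11.6 to 9.41 FPKM, log2 difference -0.26) and *SP4* (4.55 to 3.03 FPKM, log2 difference -0.48) did not pass. Of the immediate early genes, which like *KLF6* answer quickly to growth signals and injury, 6 of 26 had a paired ID, 5 fell and 1 was not called (median -1.05). *EGR1* fell from 18.7 ± 7.62 to 4.27 ± 2.19 FPKM (log2 difference -1.93) and *JUN*, a subunit of AP-1, from 94.8 ± 24.5 to 25.3 ± 3.31 FPKM (log2 difference -1.84). *NR4A1*, at 19.6 ± 14.2 and 19.4 ± 6.83 FPKM, had a difference of 0.23 with overlapping groups.

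Genes of the sperm flagellum were higher in the mature testis, as *SOX5* was. All 4 of the 38 listed genes with a paired ID rose (median 3.53), and their summed level went from 1.61 to 2.81 FPKM over the Y6M libraries to 56.1 to 81.4 FPKM over the Y30M libraries. *CFAP65*, needed for the flagellar axoneme, rose from 0.610 ± 0.172 to 23.4 ± 7.11 FPKM (log2 difference 3.89) and *DNAI2*, a dynein arm chain, from 0.903 ± 0.463 to 21.2 ± 5.64 FPKM (log2 difference 3.54). Of the transcription regulators of male germ cells, 2 of 27 had a paired ID and both rose, namely *FOXJ1* and *TAF4B*, a germ cell subunit of TFIID (4.67 ± 0.689 to 15.4 ± 5.08 FPKM, log2 difference 1.49).

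**Figure D4:**
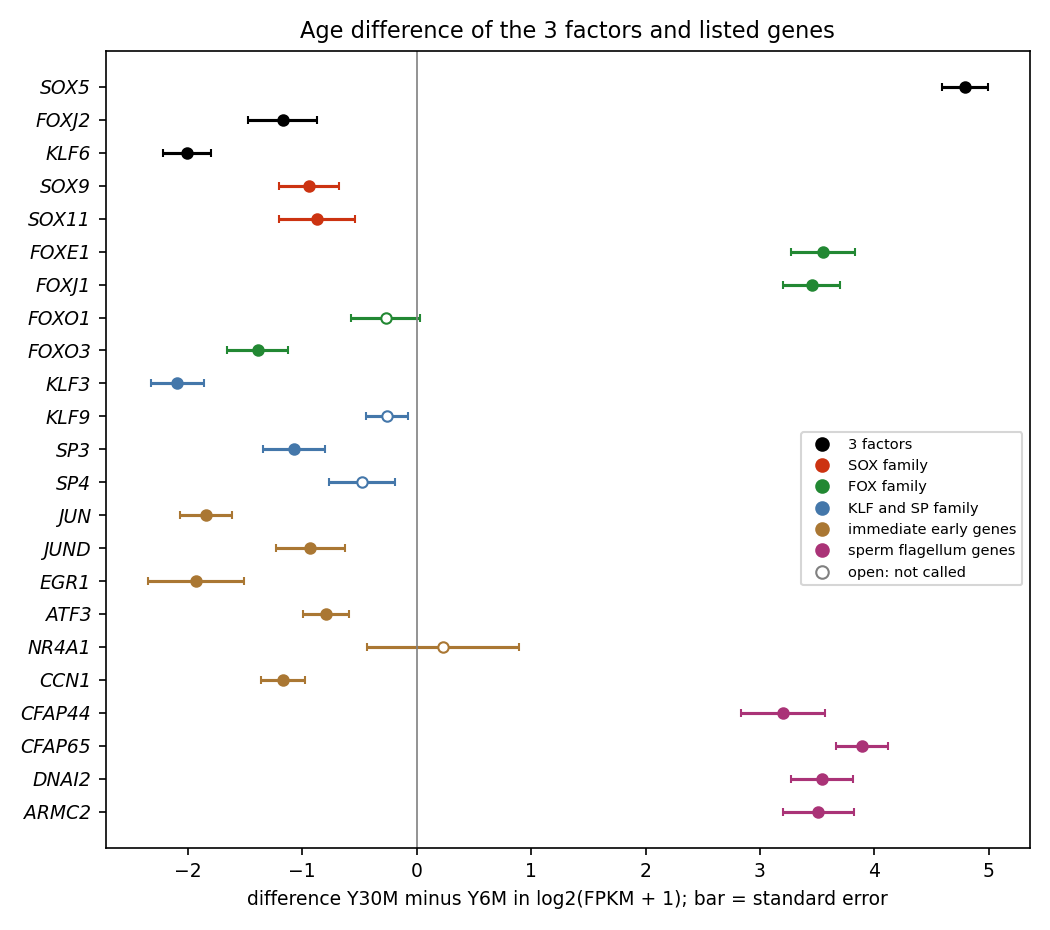
Difference between Y30M and Y6M on log2(FPKM + 1), with standard errors, for *SOX5*, *FOXJ2* and *KLF6* and for the named SOX, FOX, KLF/SP, immediate early and flagellum genes. Open circles did not pass the thresholds. *SOX5* (4.79) lies on the side of *FOXJ1*, *FOXE1* and the flagellum genes, and *FOXJ2* (-1.17) and *KLF6* (-2.01) on the side of *SOX9*, *KLF3* and 5 of the 6 immediate early genes.

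The tissue was checked with marker genes of the cell types of the testis. Sertoli cell markers with a paired ID (3 of 10: *SOX9*, *FSHR* and *DHH*) summed to 108 to 125 FPKM in Y6M and 25.7 to 45.3 FPKM in Y30M, and all 3 fell. The Leydig cell marker *LHCGR* (1 of 7 paired) went from 34.4 to 67.3 FPKM over Y6M to 1.44 to 5.37 FPKM over Y30M, and the endothelial markers *PECAM1* and *CDH5* (2 of 5) from a sum of 14.8 to 22.0 to one of 3.69 to 6.95 FPKM. These somatic markers thus fell in the same libraries as *FOXJ2* and *KLF6*. *AIF1* (1 of 5 macrophage markers) rose from 7.40 ± 3.64 to 29.6 ± 11.2 FPKM. Among spermatocyte markers (2 of 10), *SYCP3*, of the synaptonemal complex, rose from 3.05 ± 1.93 to 18.1 ± 12.3 FPKM, and *HORMAD1* was at 13.5 ± 8.32 and 17.7 ± 16.5 FPKM without passing. No paired marker was at 0 in any library. Markers of spermatogonia, spermatids, peritubular cells and blood were not paired with an ID and were not analysed here. The part of a changed cell make-up in the differences of the 3 genes was not tested.

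For each factor, the 3 named genes with the most similar profile were found among 1767 named genes with a mean of at least 1 FPKM, by the root mean square difference of log2(FPKM + 1) centred on each gene's mean over the 6 input libraries. *SOX5* was most like *YPEL1* (difference 0.061), then *VWA5B2* (0.22) and *BAG5*, a co-chaperone (0.26), where the median of the named genes was 2.4. *YPEL1* stood at a higher level, with 9.14 ± 0.496 FPKM in Y6M and 289 ± 77.4 FPKM in Y30M. *VWA5B2* went from 0.114 to 34.2 FPKM and *BAG5* from 7.14 to 179 FPKM on average. The scale understates the change of genes under 1 FPKM in Y6M, such as *SOX5* and *VWA5B2*. A small difference on it is therefore not a like ratio between the ages. *FOXJ2* was most like *PEG10*, an imprinted gene of retrotransposon origin (0.083), *AP5S1* (0.10) and *DENND2B* (0.11), with a median of 0.78. *PEG10* was at 423 ± 25.5 and 187 ± 68.1 FPKM. *KLF6* was most like *SEMA6A*, a semaphorin (0.053), *CHSY1*, a chondroitin synthase, and *FAM234B* (both 0.12), with a median of 1.1. *SEMA6A* was at 32.4 ± 5.86 and 7.02 ± 1.76 FPKM. With 6 libraries in 2 ages, such likeness is a description of these libraries.

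The FPKM sum per input library ran from 587932 to 702778, and 16947 to 18052 genes were above 0. Relative depths read from the steps of low FPKM values ran from 0.753 in Y6M replicate 3 to 1.07 in Y30M replicate 2, with Y30M replicate 1 set to 1. The first principal component (87.3% of variance) separated the ages, and on the second (7.38%) the libraries of replicate 3 lay at -43.0 and -52.5 and the other 4 between 13.0 and 36.2.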

How the data were processed

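Input and IP libraries of 6 yak testes were processed by the authors with Trimmomatic, SortMeRNA, HISAT2 (LU_Bosgru_v3.0) and MeTDiff. Versions and the tool behind FPKM are not given in the sources used here. The authors deposited FPKM per gene and input library. Their deposited peak table gives the fold enrichment of IP over input (a ratio) with log10 p-values and FDR over all libraries. The deposited Y6M list gives a prediction score per adenosine, from a tool not named. The peak table also holds the authors' comparison of the ages (log2 fold change, p and FDR of the methylation difference), which was not used. Whether FPKM were counted by strand is not stated.

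FPKM were tested as log2(FPKM + 1) with limma 3.58.1 (R 4.3.3) over the 19477 genes above 0 in at least 1 library, without a block. FPKM hide the read counts, so counting error is unknown. Exact permutation tests used scipy 1.17.1, and the fit was tested on simulated data. Deviations of libraries with the same replicate number from their group means correlated across genes at 0.209, 0.283 and 0.604 for numbers 1, 2 and 3. Y6M replicate 1 correlated at 0.322 with Y30M replicate 2, and Y6M replicate 2 at 0.253 with Y30M replicate 1, so the check sets number 3 apart but does not separate numbers 1 and 2. The yaks differ, and no label states a pairing. Genes named beside the 3 factors were the 2 largest called changes per list and direction, close relatives, and the 3 most similar profiles. *FOXO1*, *KLF9*, *SP4*, *NR4A1*, *HORMAD1* and the third Sertoli marker fall outside that rule and were added after their values were seen. Gene names came from the study's annotation of peaks. Members and lists were chosen with earlier results of these data known.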

Additional observations from a re-analysis of the deposited data

How the results depend on the processing

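Each of the 3 expression differences was recomputed under 16 alternatives. *SOX5* and *KLF6* kept their direction and passed the thresholds under all 16, and *FOXJ2* under 15. Without 1 library each, the log2 difference lay between 4.64 and 4.99 for *SOX5*, between -1.50 and -0.94 for *FOXJ2* and between -2.13 and -1.81 for *KLF6*. The adjusted p of *FOXJ2* (limma) was then 0.00225 without Y30M replicate 1. Without any other single library it was above 0.05, between 0.0602 and 0.0829. With both libraries of number 3 left out, *FOXJ2* was at -1.04 and did not pass, with fewer samples in the fit. The other alternatives (scalings, pseudocounts, filters and thresholds among them) gave 4.70 to 5.76, -1.28 to -1.03 and -2.17 to -1.90. With the replicate number as a block, the differences were 4.79, -1.17 and -2.01, 9747 genes were called in place of 9011, and no call of the 3 genes changed. The number of genes called lay between 7021 (fold change of at least 2) and 10144 (pseudocount of 0.1 FPKM), and between 8143 and 8945 without 1 library. Of the 29 named list and marker genes, 20 to 24 were called under the alternatives, against 24. Of the 7 peaks, 2 were left with an FDR of at most 0.05 for their own enrichment. The overlap of *KLF6* with the Y6M list held at 50% of both peaks, and 5 of its 7 sites had a score of at least 0.6. *SOX5* was under 1 FPKM in every Y6M library, and the counting error of its values is unknown.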
